A study of Mus musculus with 2 samples.

Results

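The Mir26 genes are Mir26a-1, Mir26a-2 and Mir26b, 3 of the 2202 annotated mouse microRNA genes counted in these libraries. They were taken by name and by place, as the microRNA genes inside the Ctdsp phosphatase genes, and not by their levels. The data are read counts of small RNA, below 30 nt, from 2 libraries of hippocampus, both described as control, wild-type, female mice of strain B6NCrl. The tissue is given as a layer of hippocampus, with no layer named, and age and developmental stage are not filled in. The libraries are numbered as biological replicates 2 and 1 and carry separate biosample records but one donor record. Nothing states that they came from separate animals, so the spread between them may be technical. There is no second condition, and the only comparisons are among genes and between the libraries.

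MiR-26 is a microRNA family conserved across vertebrates and expressed in many tissues, brain included. Its genes lie inside genes for small phosphatases of the Ctdsp family, which act on the tail of RNA polymerase II and assist the REST complex that silences neuronal genes outside neurons. In zebrafish, miR-26b represses the transcript of its own host during neuronal differentiation. A microRNA finds its targets mainly through the seed, bases 2 to 8 from its 5′ end, so members with one seed are expected to share many targets.

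The mature sequences show what the members have in common and what tells them apart. They are RefSeq sequences for GRCm38.p6, written 5′ to 3′ with the seed in capitals.
miR-26a-5p (from Mir26a-1 and from Mir26a-2): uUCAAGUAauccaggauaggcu
miR-26b-5p: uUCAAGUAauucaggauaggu
miR-26a-1-3p: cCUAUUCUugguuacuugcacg
miR-26a-2-3p: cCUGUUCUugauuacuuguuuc
miR-26b-3p: cCUGUUCUccauuacuuggcuc

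Both 5p arms carry the seed UCAAGUA, which no other mouse mature sequence of the table has. Counted from the 5′ end of the mature sequence, miR-26b-5p differs from miR-26a-5p by C11U and C21U, and the other 19 of 21 compared bases are identical. The 3p arms are less alike. The 3p arms of Mir26a-1 and Mir26a-2 share 16 of 22 bases, and A4G falls inside the seed, so that miR-26a-1-3p has a seed of its own. The 3p arms of Mir26a-2 and Mir26b share 18 of 22 bases and the seed CUGUUCU, which miR-6932-3p and miR-7039-3p also have.

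The hairpins, also from RefSeq for GRCm38.p6, show which reads could be assigned to one gene. In the first and second line below, capitals mark the run identical in both Mir26a hairpins, and in the third they mark miR-26b-5p.
Mir26a-1 (ENSMUSG00000065513.1, chr9:119031796-119031885, plus strand): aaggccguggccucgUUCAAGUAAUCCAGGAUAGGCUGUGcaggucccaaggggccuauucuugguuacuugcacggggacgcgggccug
Mir26a-2 (ENSMUSG00000065430.1, chr10:126995530-126995613, plus strand): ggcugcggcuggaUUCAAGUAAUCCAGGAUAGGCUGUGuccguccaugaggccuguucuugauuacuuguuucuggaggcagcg
Mir26b (ENSMUSG00000065468.1, chr1:74394310-74394394, plus strand): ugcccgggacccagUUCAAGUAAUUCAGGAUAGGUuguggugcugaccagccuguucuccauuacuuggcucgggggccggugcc

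The 2 Mir26a hairpins share a run of 25 nt that begins at the first base of miR-26a-5p and runs past its end. A read that starts at that base is the same for both copies until it is 26 nt long. The base just before it differs between the copies. Of the 73 possible 18-nt reads within the Mir26a-1 hairpin, 8 also occur in Mir26a-2, and these include all 5 that lie inside miR-26a-5p. Of the 67 such reads of Mir26a-2, 8 are shared likewise. All 5 of the 18-nt reads inside each of their 3p arms occur in no other annotated hairpin. For Mir26b, all 68 of the 18-nt reads occur in its own hairpin only, and its longest run shared with any other hairpin is 12 nt. The authors' counts give no gene the reads that mapped to several places, a class of 6569009 reads (45.9%) in replicate 2 and 6938312 reads (43.9%) in replicate 1. The aligner's tolerance of mismatches is not given, and exact matches were searched. The counts of Mir26a-1 and Mir26a-2 are lower bounds, and they do not say how much miR-26a-5p was present.

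**Figure D1:**
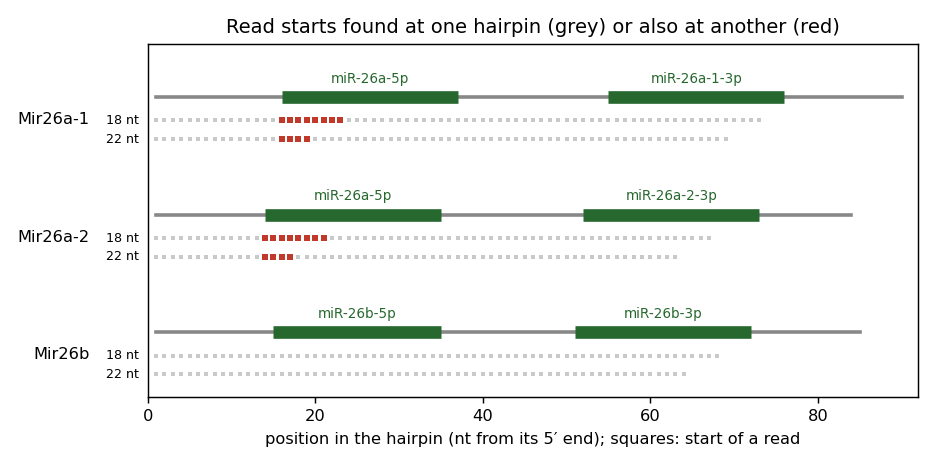
Start positions of reads of 18 and 22 nt along the 3 hairpins (x axis, nt from the 5′ end), with the mature arms as green bars. Red squares, 8 per Mir26a hairpin at 18 nt and 4 at 22 nt, are reads that another hairpin also holds, and all of them start within the 5p arm. Mir26b has none.

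The 3 genes occupy corresponding introns of their hosts. Mir26a-1 lies in intron 5 of 7 of Ctdspl, Mir26a-2 in intron 5 of 7 of Ctdsp2 and Mir26b in intron 4 of 6 of Ctdsp1, each on the strand of its host (mm10, GENCODE M21). Ctdspl spans chr9:118926453-119043998, Ctdsp2 chr10:126978717-126999975 and Ctdsp1 chr1:74391509-74397285, all on the plus strand. In each host the exon before this intron is 57 nt long, the exon after it 93 nt and the next one 186 nt, and 2 introns follow. The introns themselves differ in length, at 3283 nt in Ctdspl, 1946 nt in Ctdsp2 and 564 nt in Ctdsp1. Mir26b sits 234 nt from the upstream exon, whereas Mir26a-1 sits 1543 nt and Mir26a-2 1621 nt from theirs. Distances to the downstream exon are 1650 nt for Mir26a-1, 241 nt for Mir26a-2 and 245 nt for Mir26b.

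Of the 4 annotated Ctdsp2 transcripts, 1 has Mir26a-2 wholly inside an intron. The first exon of 2 others, a coding one and one with a retained intron, starts at position 126995613 of chromosome 10, which is the last base of the hairpin, an overlap of 1 nt. No transcript of Ctdspl or Ctdsp1 overlaps its microRNA in an exon. The hosts themselves are no microRNA genes, so their RNA was not measured here. Mir26a-1 and Mir26b have no other microRNA gene within 10 kb. Mir26a-2 has 1, Mir546, which had 1 count in each library.

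**Figure D2:**
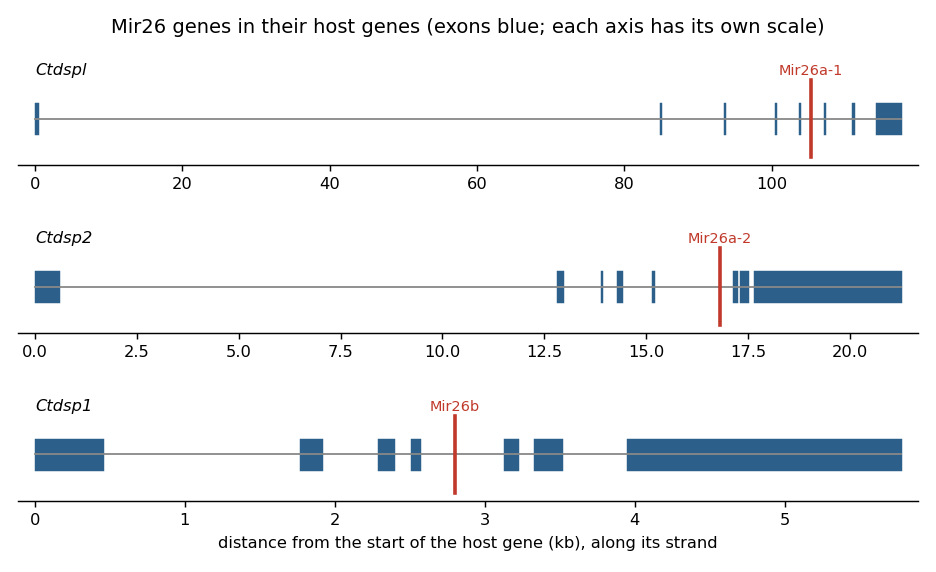
Exons (blue boxes) of 1 coding transcript of each host and the place of its microRNA (red line), by distance in kb from the start of the host gene, with a separate scale for each host. Each Mir26 gene lies in the third intron from the end, in hosts of 118, 21.3 and 5.78 kb.

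Mir26b was by far the most counted of the 3. Levels are CPM, sense-strand counts of a gene per 1000000 sense-strand counts of all microRNA genes, which totalled 5901107 in replicate 2 and 6713867 in replicate 1. Mir26b had 42456 counts in replicate 2 and 25282 in replicate 1. This was 7195 CPM (exact 95% interval 7127 to 7263) in replicate 2 and 3766 CPM (3719 to 3812) in replicate 1, a mean of 5480 ± 2425 CPM (SD, n = 2). It ranked 27th of the 2202 genes in replicate 2, 40th in replicate 1 and 33rd by mean. Intervals cover counting error only. They treat each read as an independent draw, which cannot be checked because no molecular identifiers are given.

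Mir26a-2 had 204 counts in replicate 2 and 134 in replicate 1, or 34.6 CPM (exact 95% interval 30.0 to 39.7) in replicate 2 and 20.0 CPM (16.7 to 23.6) in replicate 1. Its mean was 27.3 ± 10.3 CPM (SD, n = 2), rank 252. Mir26a-1 had 102 counts in replicate 2 and 23 in replicate 1, or 17.3 CPM (14.1 to 20.98) in replicate 2 and 3.43 CPM (2.17 to 5.14) in replicate 1. Its mean was 10.4 ± 9.80 CPM (SD, n = 2), rank 304. Both copies were higher in replicate 2. A difference between the libraries beyond counting error is common here, as the exact test described below called 57.5% of the tested genes. On the opposite strand all 3 genes had 0 counts in both libraries, which allows up to 0.508 CPM in replicate 2 and 0.447 CPM in replicate 1. Their counts without strand were the same as their sense counts.

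The order Mir26b, Mir26a-2, Mir26a-1 held in both libraries, and within a library the intervals of the genes did not overlap. Per nucleotide of hairpin the mean levels were 64.5 CPM for Mir26b, 0.325 CPM for Mir26a-2 and 0.115 CPM for Mir26a-1. This does not correct for reads of the Mir26a copies that mapped to several places, so the order is one of assigned reads. The gaps between means exceeded the SD of each gene. Within a library Mir26a-2 had 2.00 times the counts of Mir26a-1 in replicate 2 (exact 95% interval 1.57 to 2.56) and 5.83 times in replicate 1 (3.72 to 9.51). With 2 libraries no test between genes was made.

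Together the 3 genes held 0.725% of sense counts in replicate 2 and 0.379% in replicate 1. Mir26b made up 99.3% of them in replicate 2 (exact 95% interval 99.2 to 99.4) and 99.4% in replicate 1 (99.3 to 99.5). It had 138.7 times the counts of both Mir26a copies summed in replicate 2 (124.0 to 155.8) and 161.0 times in replicate 1 (137.7 to 189.6). As the Mir26a counts are lower bounds, these ratios rank assigned reads, and no order between miR-26a and miR-26b in the tissue follows from them.

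**Figure D3:**
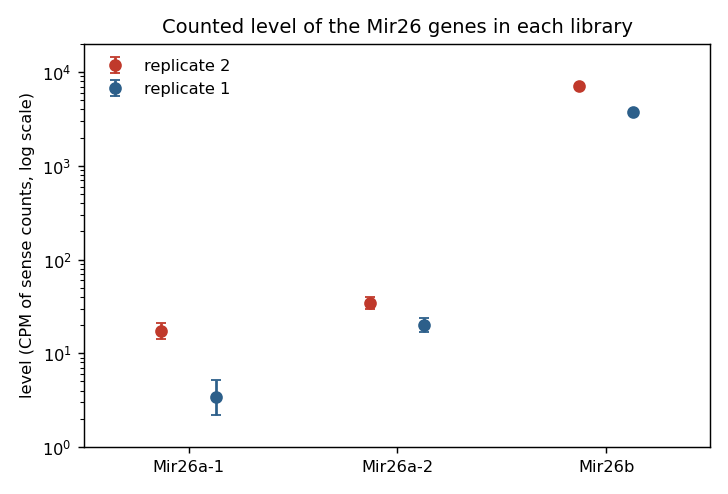
Level of each Mir26 gene in CPM (log axis) in replicate 2 (red) and replicate 1 (blue), with exact 95% counting intervals as bars. Mir26b stands at 7195 CPM in replicate 2 and 3766 CPM in replicate 1. Both Mir26a copies stay below 40 CPM as lower bounds.

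All 3 genes were counted at a higher level in replicate 2 than in replicate 1. Ratios are log2 of replicate 2 over replicate 1, with 0.5 counts added and libraries scaled by the trimmed mean of M values (TMM). Each gene's counts were set against all other counts by a 2-sided Fisher exact test, adjusted by Benjamini-Hochberg over the 466 genes whose counts averaged at least 10. This test compares the 2 libraries and not conditions, and covers counting error only. At an adjusted p of 0.05 it called 57.5% of the tested genes. By the sign of the TMM ratio, 21.9% were called higher in replicate 2 and 35.6% lower. The test itself works on shares of total counts, and by the sign of that difference 84 genes (18%) were called higher and 184 (39.5%) lower. All 3 Mir26 genes were called higher by either sign. A call alone does not set the members apart.

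Mir26b had a log2 ratio of 1.10 (counting SE 0.01), a CPM 1.91-fold higher in replicate 2. Its p was too small for the software to hold and is not printed. Its ratio was larger in size than most: 51 of the 466 tested genes (10.9%) differed by more in either direction. Among the 33 genes at least as abundant by mean, itself included, 2 had a higher ratio. These were Mir128-1, a neuronal microRNA, at 1.40 (counting SE 0.01) and Mir139, the gene of highest mean level, at 1.27 (counting SE 0.0023).

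Mir26a-2 had a log2 ratio of 0.95 (counting SE 0.16) and passed the Fisher exact test at an adjusted p of 1.61e-06, and 70 tested genes (15.0%) differed by more. Mir26a-1 had a ratio of 2.47 (counting SE 0.33) with an adjusted p of 5.82e-15 by the same test. No tested gene had a higher ratio than Mir26a-1, and 7 (1.5%) differed by more, all of them lower in replicate 2. The Mir26a-1 ratio rests on 23 counts in replicate 1, and the ratios of both Mir26a copies are of assigned reads only. Scaled by raw totals, which moves the median of all tested genes to -0.18 from -0.02 under TMM, the ratios were 0.93 for Mir26b, 0.79 for Mir26a-2 and 2.31 for Mir26a-1.

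**Figure D4:**
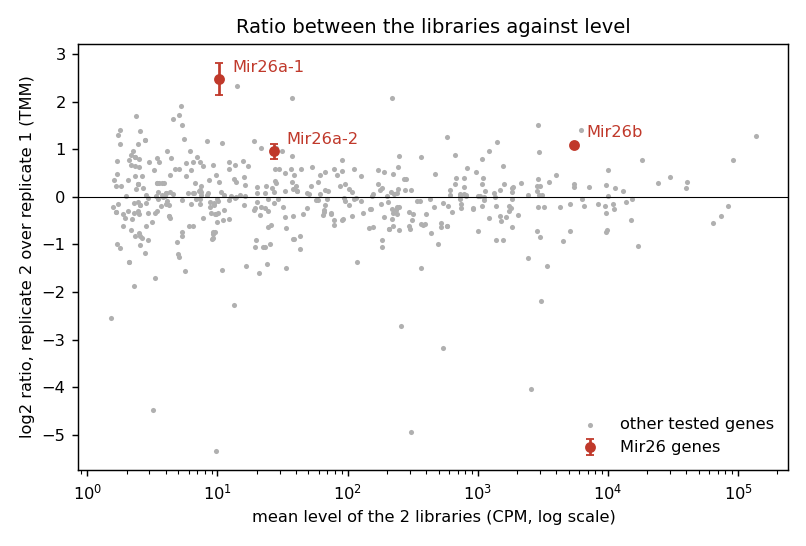
Log2 ratio of replicate 2 over replicate 1 (TMM scaling) against mean CPM (log axis) for the 466 tested genes, with the Mir26 genes in red and their counting SE as bars. The 3 genes lie above 0, at 1.10, 0.95 and 2.47, and Mir26a-1 is the highest point of the plot.

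The ratio of one member to another within a library does not depend on how the libraries are scaled. For Mir26a-2 against Mir26b the odds ratio of replicate 2 over replicate 1 was 0.907, with an exact 95% interval of 0.725 to 1.14 that includes equality. For Mir26a-1 against Mir26b it was 2.64 (exact 95% interval 1.67 to 4.35), and for Mir26a-1 against Mir26a-2 it was 2.91 (1.73 to 5.04). By assigned reads, Mir26a-1 was higher in replicate 2 relative to the other members by more than counting error. How many Mir26a reads each library lost to several places was not measured, so these are no ratios of the mature sequences. These are the 3 possible pairs, and the intervals hold no spread between libraries.

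Marker microRNAs of several cell types also differed between these libraries. The oligodendrocyte markers, 3 of 3 detected, had sums of 3193 CPM in replicate 2 and 7078 CPM in replicate 1. Most of this was Mir219a-2, at 1671 CPM in replicate 2, against 5126 CPM in replicate 1. Mir338 was at 1512 CPM in replicate 2, against 1941 CPM in replicate 1. Mir126a of endothelium was at 2897 CPM in replicate 2, against 6191 CPM in replicate 1. The erythrocyte markers, 3 of 3 detected, were in sum at 32.7 CPM in replicate 2, against 73.1 CPM in replicate 1, and 2 of them, Mir451a and Mir486, were lower. The neuron markers, 9 of 10 detected with Mir124a-2 at 0, reached 29650 CPM in replicate 2, against 28599 CPM in replicate 1 in sum, with 3 members higher and 6 lower in replicate 2 by CPM. The leading 2 went opposite ways: Mir132 was at 12540 CPM in replicate 2, against 15073 CPM in replicate 1, and Mir128-1 at 8772 CPM in replicate 2, against 3723 CPM in replicate 1. The leukocyte and microglia markers, 5 of 5 detected, reached 2238 CPM in replicate 2, against 2025 CPM in replicate 1. In this list 1 member, Mir150, was higher, at 1815 CPM in replicate 2, against 1303 CPM in replicate 1. The other 4 were lower, among them Mir146 at 380 CPM in replicate 2, against 658 CPM in replicate 1. Of 5 muscle markers only Mir206 had counts, at 19.3 CPM in replicate 2, against 32.6 CPM in replicate 1. Mir122 of liver was at 42.0 CPM in replicate 2, against 55.1 CPM in replicate 1. The Mir26 genes thus went the other way from the sums of the oligodendrocyte, endothelial and erythrocyte markers and from Mir206 and Mir122. The sums of the neuron markers and of the leukocyte and microglia markers were higher in replicate 2, as the Mir26 genes were. Most single members of these lists were lower, with 6 of the 9 detected neuron markers and 4 of the 5 leukocyte and microglia markers. The adapter-trimming document also differs between the libraries. The part of cell makeup and of trimming in the Mir26 ratios was not tested, and trimming and biosample cannot be told apart. Nor, in bulk tissue, can fewer cells of a type be told apart from less RNA per cell.

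Other microRNA genes are known to lie in introns of paralogous protein-coding genes, as the Mir26 genes do. Of 14 such genes on a list chosen with earlier results known, 12 had enough counts to be tested, 4 were called higher in replicate 2 and 3 lower, by either sign. These 7 calls are 58.3% of the 12, near the 57.5% over all tested genes. The list's median log2 ratio was 0.17, against -0.02 over all 466 tested genes. Mir128-1 and Mir128-2, the neuronal pair of R3hdm1 and Arpp21, were both higher, at 1.40 (counting SE 0.01) and 1.14 (counting SE 0.02). Mir204, of a Trpm intron, and Mir218-2, of a Slit intron, were also higher, at 0.27 (SE 0.02) and 0.52 (SE 0.06). The other 5 did not pass, among them Mir218-1 at 0.22 and Mir153 at 0.12.

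The Mir103 and Mir107 genes of the pantothenate kinase introns are built like the Mir26 family, a pair of copies with a shared mature sequence and a close relative. They moved in the opposite direction. Replicate 2 held 5932 counts of Mir107, against 34549 in replicate 1, for a log2 ratio of -2.19 (counting SE 0.02). It held 70 counts of Mir103-2, against 240 in replicate 1 (log2 ratio -1.42, SE 0.20), and 5 counts of Mir103-1, against 25 in replicate 1 (log2 ratio -1.87, SE 0.68). Mir107 had 79.1 times the counts of both Mir103 copies in replicate 2 (exact 95% interval 63.0 to 100.7) and 130.4 times in replicate 1 (115.5 to 147.7). Unlike Mir26b, Mir107 itself shares 24 nt with Mir103-1, so its counts are a lower bound too.

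Mir26a was set beside a list of families with numbered copies, picked as known in brain and with earlier results known. Of the 22 families, Mir26a included, it came 20th by mean level summed over copies. It had 306 counts (51.9 CPM) in replicate 2 and 157 counts (23.4 CPM) in replicate 1. Families outside the list were not ranked, so this place depends on the choice of list. Mir103 and Mir124a, a neuronal microRNA, were below it by mean, although Mir103 exceeded it in replicate 1 with 39.5 CPM, and Mir135a and Mir24 were next above, at means of 47.3 and 54.2 CPM. Of the copies in these families as single genes, Mir26a-2 was 33rd and Mir26a-1 39th of 46. The most counted family was Mir128, whose copies share 23 nt, at 10654 CPM in replicate 2, against 4676 CPM in replicate 1. Mir16, with the same shared length, was at 217 CPM in replicate 2, against 209.7 CPM in replicate 1. How many reads each family lost to several places was not measured. Mir16-2 was higher in replicate 2, at 0.59 (counting SE 0.13), and Mir16-1 did not pass, at 0.14. Of the 44 listed copies apart from Mir26a, 40 were tested and 31 (77.5%) called, against 57.5% of all tested genes. The test calls smaller differences in genes with more counts, and the list was not matched to the other genes by counts. By the sign of the TMM ratio 19 were higher in replicate 2 and 12 lower, and by share of total counts 17 were higher and 14 lower. Their median ratio was 0.20, against -0.02 over all tested genes.

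**Figure D5:**
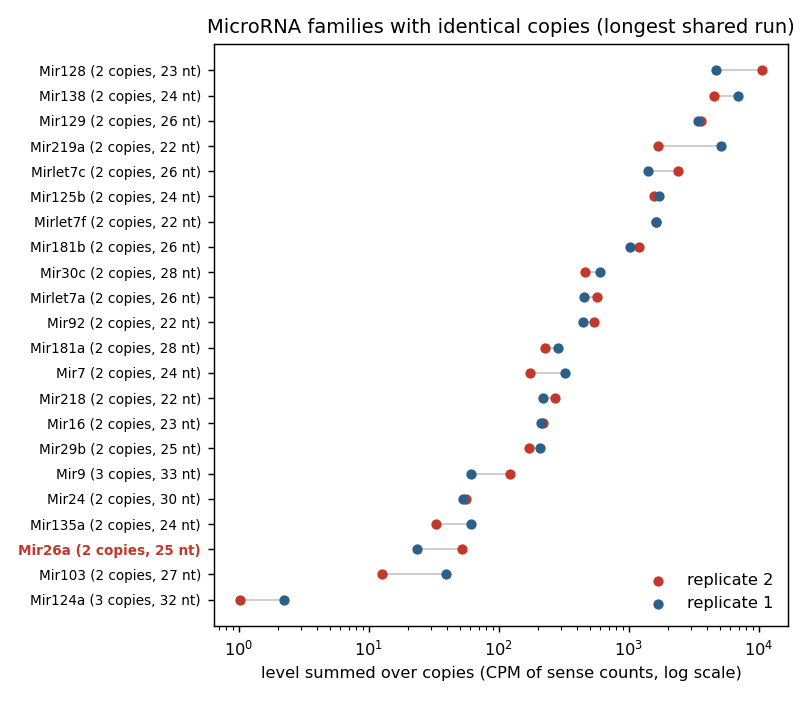
CPM summed over the copies of 22 microRNA families, a chosen list of families known in brain (log axis). Replicate 2 is red and replicate 1 blue, ordered by mean. The number of copies and the longest run shared with another hairpin stand beside each name. Mir26a, at 51.9 CPM in replicate 2 and 23.4 CPM in replicate 1, is 20th by mean, above Mir103 and Mir124a.

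Genes with the most similar levels were found by distance in log2(CPM + 1) over the 2 libraries. For Mir26b they were Mir128-1 at a distance of 0.29, with 8772 CPM in replicate 2 and 3723 CPM in replicate 1, then Mir92b at 0.59 and Mir598 at 0.63. For Mir26a-2 they were Mir504 at 0.07, with 36.4 CPM in replicate 2 and 20.0 CPM in replicate 1, then Mir182 at 0.25 and Mir101a at 0.28. For Mir26a-1 they were Mir301 at 0.60, with 23.0 CPM in replicate 2 and 5.06 CPM in replicate 1 (log2 ratio 2.33), then Mir3572 at 0.81 and Mir3083 at 0.94. With 2 libraries this likeness describes levels and is no measure of joint behaviour.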

How the data were processed

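Each library came as a file of unnormalized read counts by gene, which the authors made for mm10 and GENCODE M21, per the notes deposited with each library. Per the labels' protocols, adapters were trimmed by a linked document that differs between the libraries. Which programs aligned and counted the reads is not given in the sources used here. Signal tracks were not used here. The columns have no heading, and their values show counts without strand, on the gene's strand (sense) and opposite to it. The 4 rows of read classes (unmapped, several places, no feature, ambiguous) were left out of totals; their shares were 9.63%, 45.9%, 3.17% and 0% of 14300757 reads in replicate 2 and 10.8%, 43.9%, 2.78% and 0% of 15794475 reads in replicate 1. CPM were computed here from the sense counts.

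All 2202 identifiers matched GENCODE M21. TMM factors came from edgeR 4.0.16, over genes with a count, and alternative size factors from DESeq2 1.42.0. Exact tests and Clopper-Pearson intervals used scipy 1.17.1, with a floor of 3 counts for a 0. Shared sequence was searched in all annotated hairpins, both strands; no genome was searched. All 3 members matched RefSeq hairpins. The exact test was checked on simulated counts with known changes and counting error only. It called 45 of 50 genes made 2-fold higher, 37 of 50 made 2-fold lower and 4 of 266 left unchanged. The simulation held no spread between libraries, so it does not show how the test behaves under such spread. Members, lists and tests were chosen with earlier results of these data known. Named genes were the members, the 3 genes nearest to each in level, up to 8 genes of the paralogous-host list by mean CPM, the Mir103, Mir128 and Mir16 pairs, and the 2 leading markers of each cell type. Mir139, Mir24, Mir124a, Mir135a and Mir546 were chosen after their values were seen.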

Additional observations from a re-analysis of the deposited data

How the results depend on the processing

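The ratios of Mir26a-1, Mir26a-2 and Mir26b kept their direction under raw totals, DESeq2 size factors, an added count of 1 and, chosen after the data were seen, TMM factors from the 466 tested genes alone. The exact test uses none of these, so its p could not move with them. Direction and call were also kept with counts without strand, no filter on low counts and a minimum mean of 50 counts. The ratios ranged from 2.31 to 2.51 for Mir26a-1, 0.79 to 0.99 for Mir26a-2 and 0.93 to 1.13 for Mir26b, with adjusted p of the exact test from 4.1e-15 to 9.83e-15 for Mir26a-1 and from 1.14e-06 to 2.72e-06 for Mir26a-2. With all reads of the library as the total, mean levels were 4.29 CPM for Mir26a-1, 11.4 CPM for Mir26a-2 and 2285 CPM for Mir26b, because that total also holds reads given to no gene; a total without Mir139 moved no level beyond its SD. Leaving out each replicate in turn gave mean levels of 3.43 to 17.3 CPM for Mir26a-1, 20.0 to 34.6 CPM for Mir26a-2 and 3766 to 7195 CPM for Mir26b, and a Mir26b share of 99.3% to 99.4%. Called genes numbered 248 to 268 under the alternatives, against 268, and with raw totals 84 were higher in replicate 2 and 184 lower, against 102 and 166. Of 67 alternative values, 65 stayed within the limits set for them. The other 2 were the mean levels of Mir26a-2 and Mir26b with all reads as the total. The tally is no measure of stability, since some of these outcomes were fixed in advance. With 2 libraries, the level or share in either library always lies within the SD of their mean. Counts without strand could not move the Mir26b share or the odds ratios, because the 3 genes had no antisense counts. With reads of 16, 20 or 22 bases in place of 18, the share of read positions found in no other hairpin was 86.7% to 94.2% for Mir26a-1, 85.5% to 93.7% for Mir26a-2 and 100% for Mir26b. The search of the whole genome for shared sequence was not run. No paired analysis was possible because there is 1 group. Depth limits Mir26a-1 most, with 23 counts in replicate 1.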
